A study of Mus musculus with 6 samples.

Results

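The γ-crystallin family was described here by the 8 genes named Cryga, Crygb, Crygc, Crygd, Cryge, Crygf, Crygn and Crygs. They were found by symbol as 8 among the 41128 features of each file. RNA sequencing was compared between mouse lenses at E15.5 from 2 groups of 3 libraries. The β1-cKO group was homozygous for floxed alleles of Itgb1, the β1-integrin gene, and carried the MLR10 Cre transgene, on a mixed strain background, and each library pooled 30 lenses. MLR10 is known as a Cre line driven by a modified αA-crystallin promoter and active in lens cells. The wild-type group was C57Bl/6, with no floxed allele or Cre named in its labels and 75 lenses per library, and these samples also belong to an older series. Genotype, Cre, strain, pool size and membership of the older series divide the libraries in the same way and cannot be told apart in these data. Depth was also higher in every β1-cKO library, and values at equal depth are given for Crygb.

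γ-Crystallins are small, very stable proteins built of Greek key folds, and with the α- and β-crystallins they make up most of the soluble protein of the lens. Their genes are switched on as lens epithelial cells become elongated fiber cells, under transcription factors that include Maf, Sox1, Prox1 and Pax6. Dominant mutations in several of them are known to cloud the lens. Crygs is best known as the member that rises late, in fibers formed after birth, and Crygn is a more distant relative.

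Recovered library sizes were 20036554 to 28095318 reads in β1-cKO and 10023049 to 11531139 in wild type, and the 3 crystallin families together took 29.8% to 35.0% and 31.6% to 34.8% of them. Itgb1, counted over the whole gene, fell from 425 ± 22.97 to 258 ± 19.8 CPM (the CPM of a gene is its share of all counted reads, scaled so that a library sums to 1000000). Its log2 fold change was -0.72 with n = 3 libraries a group, its adjusted p by limma was 1.63e-05, and the errors are SD. Endothelial markers were higher in 8 of 8 tested genes, with summed levels of 104 to 129 CPM in wild type and 178 to 211 CPM in β1-cKO. Macrophage markers were higher in 7 of 8, with sums of 9.19 to 10.9 and 19.3 to 26.6 CPM, and pericyte markers in 4 of 5, with 66.6 to 74.9 and 123 to 140.4 CPM. Of the erythroid markers 3 of 6 were higher and 1 lower (253 to 284 and 349.5 to 624 CPM), and of the periocular mesenchyme markers 2 of 4 were higher and 1 lower (205 to 247 and 187 to 222 CPM). Most of the mesenchyme sum was the lower gene, Pdgfra, with means of 211 CPM in wild type and 173 CPM in β1-cKO. The 2 higher genes were low: Foxc1 rose from 5.46 to 10.7 CPM and Col3a1 from 3.96 to 11.6 CPM in the mean. Of 9 lens fiber markers 1 was higher and 5 were lower, with summed levels of 15698 to 17178 CPM in wild type and 13492 to 14985 CPM in β1-cKO. Bfsp2, which encodes a beaded filament protein, fell by 5.32 on the log2 scale. The other lower fiber markers changed far less, from -0.20 in Tdrd7 to -0.64 in Dnase2b. Bfsp1 was not called (-0.18, adjusted p = 0.149 by limma). The part of strain in the Bfsp2 value was not tested. Of 8 lens epithelium markers 1 was higher and 3 were lower (4342 to 5099 and 4358 to 4928 CPM). Most of that sum was the α-crystallin gene Cryab, with means of 3363 CPM in wild type and 3439 CPM in β1-cKO. Over all genes tested, 20.9% were higher and 15.9% lower by limma. The part of the marker shifts in the γ-crystallin values was not tested. In bulk lens RNA, a change in fiber cell number and a change in γ-crystallin RNA per fiber cell cannot be told apart.

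Of the 8 genes, 6 lie on chromosome 1. On GRCm38 (GENCODE M21) Cryge (chr1:65048554-65051149), Crygd (chr1:65061872-65063452), Crygc (chr1:65071525-65073689), Crygb (chr1:65080219-65082288) and Cryga (chr1:65100389-65103373) stand in this order within 54820 bases on the minus strand. Crygf (chr1:65926520-65928307) lies 823146 bases beyond Cryga on the plus strand. Crygn (chr5:24751003-24758008) and Crygs (chr16:22805203-22811577) stand alone on the minus strands of chromosomes 5 and 16. All 8 are annotated as protein coding, and the first coding transcript of each chromosome 1 member has 3 exons and a coding sequence of 525 or 528 bases.

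The promoters of the chromosome 1 members, apart from Crygb, share the word CTTTTGTG. Any part of these letters in the level of Crygb or of another member was not tested. The 110 bases before the RefSeq start (GRCm38.p6) are given 5′ to 3′ on the coding strand for 4 of the chromosome 1 members. Capitals mark CTTTTGTG, a T-rich word, and TATATA, one spelling of the core of a TATA box.
Cryga (chr1:65103364-65103473, minus strand): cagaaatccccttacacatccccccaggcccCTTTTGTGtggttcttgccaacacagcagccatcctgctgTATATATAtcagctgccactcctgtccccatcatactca
Crygb (chr1:65082291-65082400, minus strand): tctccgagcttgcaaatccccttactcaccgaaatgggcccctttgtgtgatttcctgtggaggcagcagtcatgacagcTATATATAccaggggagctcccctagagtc
Crygc (chr1:65073533-65073642, minus strand): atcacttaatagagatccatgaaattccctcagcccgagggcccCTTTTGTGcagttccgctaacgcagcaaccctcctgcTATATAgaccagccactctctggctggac
Crygf (chr1:65926412-65926521, plus strand): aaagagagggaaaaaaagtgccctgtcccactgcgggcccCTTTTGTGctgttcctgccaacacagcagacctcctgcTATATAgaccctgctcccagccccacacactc
The word CTTTTGTG was found in this window of Cryga, Crygc, Crygd, Cryge and Crygf, from position -79 in Cryga to -56 in Cryge, on the coding strand. Searched on both strands, it occurs in 0.514% of 32851 RefSeq promoter windows of the same length. Crygb does not hold it in this window and has CTTTGTG at position -69, a word present in 2.46% of windows. TATATA stood in 7 of the 8 members, in all but Crygs, against 2.37% of windows, with overlapping matches in Cryga and Crygb. The Crygs window, not printed here, holds the similar word TATAAAT, a spelling that was not counted, so Crygs is not shown to lack a TATA box. These words were chosen after the sequences were read, and a match is a description of letters, not of a binding site.

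The members differ in how far a read of 50 bases can tell them apart. The coding sequences of Cryge and Crygf were 98.1% identical, those of Crygd and Cryge 91.6%, and those of Crygd and Crygf 90.7%. Crygb and Crygc were 83.7% identical, whereas Crygn and Crygs were 57.9% to 63.7% identical to any other member. Of all 50-base words in the transcripts of Crygf, 32.2% also occur in Cryge, and of those of Cryge, 29.4% occur in Crygf and 28.1% in Crygd. Crygb shared 29.4% of its words with Crygc, and Crygc 21.9% with Crygb. Cryga shared 4.64% with other members, although 42.3% of its words lie in the overlapping read-through model Gm28845, which was not analysed here. Crygn and Crygs shared 0 words with any transcript of another gene. No source used here says how reads matching several members were counted, so the split of reads within the Crygd, Cryge and Crygf group and between Crygb and Crygc is uncertain.

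**Figure D1:**
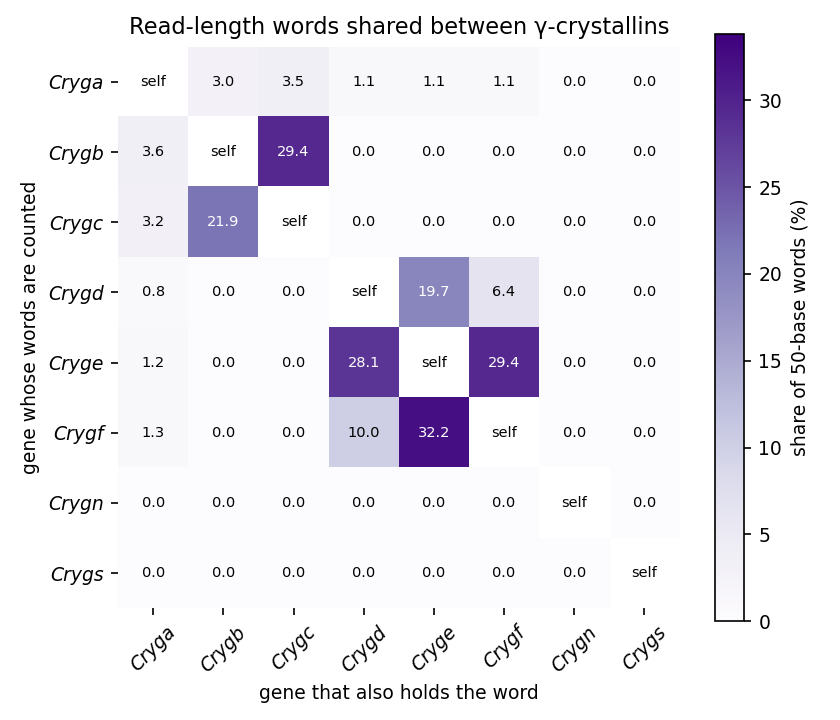
Share of the 50-base words of each γ-crystallin's transcripts (rows, in percent) that also occur in another γ-crystallin (columns), from GENCODE M21. Crygd, Cryge and Crygf form one block and Crygb and Crygc another, while Crygn and Crygs share no words.

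Per length, Cryga was the most abundant γ-crystallin transcript. In wild type its deposited RPKM (CPM per kilobase of gene length) was 26212 ± 1828 (SD, n = 3), and it was the third highest of all features in each of the 6 libraries. Cryge followed at 19610 ± 1329 RPKM, Crygb at 18272 ± 1814, Crygd at 11666 ± 941, Crygf at 10976 ± 895, Crygc at 8576 ± 860 and Crygn at 4693 ± 448. Crygs was the lowest at 538 ± 99.5 RPKM, so that Crygn stood 8.72 times above it. The order was the same in the 3 wild-type libraries, but the ranges of Cryge and Crygb overlapped, as did those of Crygd and Crygf. Crygd is placed low by its length: the authors' RPKM implies 1028 bases, whereas its longest coding transcript in GENCODE M21 has 613, and per kilobase of that transcript its wild-type level would be 19564 CPM.

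In β1-cKO the same order held in all 3 libraries except that Crygb stood above Cryge. Its level was 25109.5 ± 3382 RPKM, against 20543 ± 1959 RPKM for Cryge and 28961 ± 3208 RPKM for Cryga, and the ranges of these neighbours overlapped in both cases. Thus Crygb stood above Cryge in 3 of 3 β1-cKO libraries and Cryge above Crygb in 3 of 3 wild-type libraries.

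Crygb was the 1 member called different between the groups, and it rose. Over all genes tested, 36.9% were called in either direction, 20.9% as higher and 15.9% as lower in β1-cKO, and 1 of 8 members is a share below that background. With edgeR 1 of 8 members was called higher and 0 lower, beside 20.0% higher, 20.0% lower and 40.0% in either direction over all genes. No member was lower at an unadjusted p under 0.05 by limma, and DESeq2 called 0 lower. The median log2 fold change of the 8 members was -0.04, beside 0.03 over all 11941 genes tested, and all 8 passed the filter on low values in every library. The means of 3 members were above and those of 5 below wild type. Of the 8 members, 1 had groups that did not overlap, beside 48.1% of all genes in either direction and 26.9% higher in β1-cKO.

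**Figure D2:**
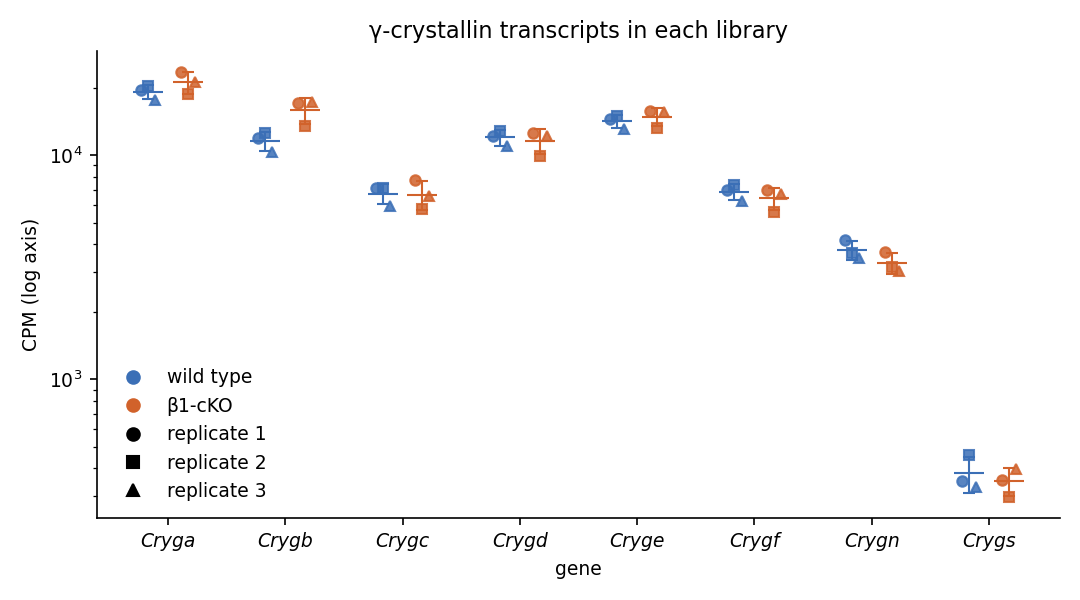
CPM of each γ-crystallin gene on a log axis, with 1 point per library (shape gives the replicate number), and the mean with SD of the 3 libraries of each group. The β1-cKO points of Crygb, at 13444 to 17208 CPM, lie above all its wild-type points, and the groups of the other 7 genes overlap.

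Crygb (ENSMUSG00000073658) encodes γB-crystallin. Its level was 11936, 12517.5 and 10300.1 CPM in wild-type replicates 1, 2 and 3, and 17106, 13444 and 17208 CPM in β1-cKO replicates 1, 2 and 3. Every β1-cKO library lay above every wild-type library, and β1-cKO replicate 2 came closest to them. The means were 11585 ± 1150 and 15919 ± 2144 CPM (SD, n = 3 each), which is 1.37 times the wild-type level. The log2 fold change was 0.45 (SE 0.11, 95% confidence interval 0.22 to 0.69, adjusted p = 0.00531 by limma). With 103238 to 142789 wild-type reads and 271764 to 483469 β1-cKO reads on this gene, counting error was at most 0.311% of a value, far below the spread between replicates of 9.93% in wild type and 13.5% in β1-cKO. The mean of Crygb rose by 4335 CPM, and the difference in the mean of Crygc, with which it shares words, was -72.0 CPM. With reads thinned to 10023049 per library, the log2 fold change of Crygb was 0.45 (adjusted p = 0.00398). The call held with each library left out in turn and with edgeR, DESeq2 and limma-voom on recovered reads.

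Cryga (ENSMUSG00000044429), the γA-crystallin gene, was at 19472, 20268 and 17664 CPM in the wild-type replicates and at 23504, 18821 and 21100.4 CPM in the β1-cKO replicates. The highest value was that of β1-cKO replicate 1, but replicate 2 lay inside the wild-type range. Its log2 fold change was 0.14 (95% confidence interval -0.06 to 0.35, adjusted p = 0.269), so the gene was not called.

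Crygc (ENSMUSG00000025952) was at 7140.1, 7122 and 5961 CPM in wild type and at 7718, 5727 and 6562 CPM in β1-cKO. The β1-cKO libraries held both the highest and the lowest value. The log2 fold change was -0.02 (95% confidence interval -0.26 to 0.21, adjusted p = 0.897), and its sign turned without β1-cKO replicate 2, wild-type replicate 1 or wild-type replicate 2.

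Crygd, Cryge and Crygf encode the closely similar γD-, γE- and γF-crystallins. Crygd (ENSMUSG00000067299) was at 12148, 12874 and 10957 CPM in wild type and at 12614, 9938 and 12229.6 CPM in β1-cKO. Cryge (ENSMUSG00000070870) was at 14524, 14919 and 13092 CPM in wild type and at 15763, 13221 and 15574 CPM in β1-cKO. Crygf (ENSMUSG00000025945) was at 6987, 7383 and 6276 CPM in wild type and at 6957, 5562 and 6711 CPM in β1-cKO. In each of these genes the 2 groups overlapped. Their log2 fold changes were -0.05 for Crygd (95% confidence interval -0.27 to 0.16, adjusted p = 0.709), 0.06 for Cryge (-0.13 to 0.26, adjusted p = 0.610) and -0.11 for Crygf (-0.31 to 0.10, adjusted p = 0.419). The sign of Crygd turned without β1-cKO replicate 2. Summed over the 3 genes, so that reads traded between them cancel, the level was 33053 ± 2481 CPM in wild type and 32857 ± 3605 CPM in β1-cKO, a ratio of 0.994.

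Crygn (ENSMUSG00000038135), which encodes γN-crystallin and shares no read-length words with other genes, was at 4165, 3656 and 3470 CPM in wild type and at 3697, 3157 and 3044 CPM in β1-cKO. The highest β1-cKO library lay between the wild-type libraries. The log2 fold change of -0.19 (95% confidence interval -0.39 to 0.01) did not pass the test (adjusted p = 0.127). It did pass without β1-cKO replicate 1, where it was -0.28 (adjusted p = 0.0349), and over the alternatives the adjusted p ran from 0.0226 to 0.390.

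Crygs (ENSMUSG00000033501), the γS-crystallin gene, was at 350.1, 461 and 331 CPM in wild type and at 354, 299.5 and 399 CPM in β1-cKO. Wild-type replicate 2 was the highest of all 6 libraries and β1-cKO replicate 2 the lowest. With a log2 fold change of -0.11 (95% confidence interval -0.40 to 0.17, adjusted p = 0.531) the gene was not called, and the spread within wild type, 18.5% of the mean, was the widest of the 8 genes in that group. Its sign turned without wild-type replicate 2.

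For the 7 members that did not pass, the confidence intervals reach at most 0.35 upward, in Cryga, and -0.40 downward, in Crygs, on the log2 scale. Changes larger than these lie outside the intervals of all 7, while changes inside a gene's own interval were not resolved with 3 libraries a group.

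**Figure D3:**
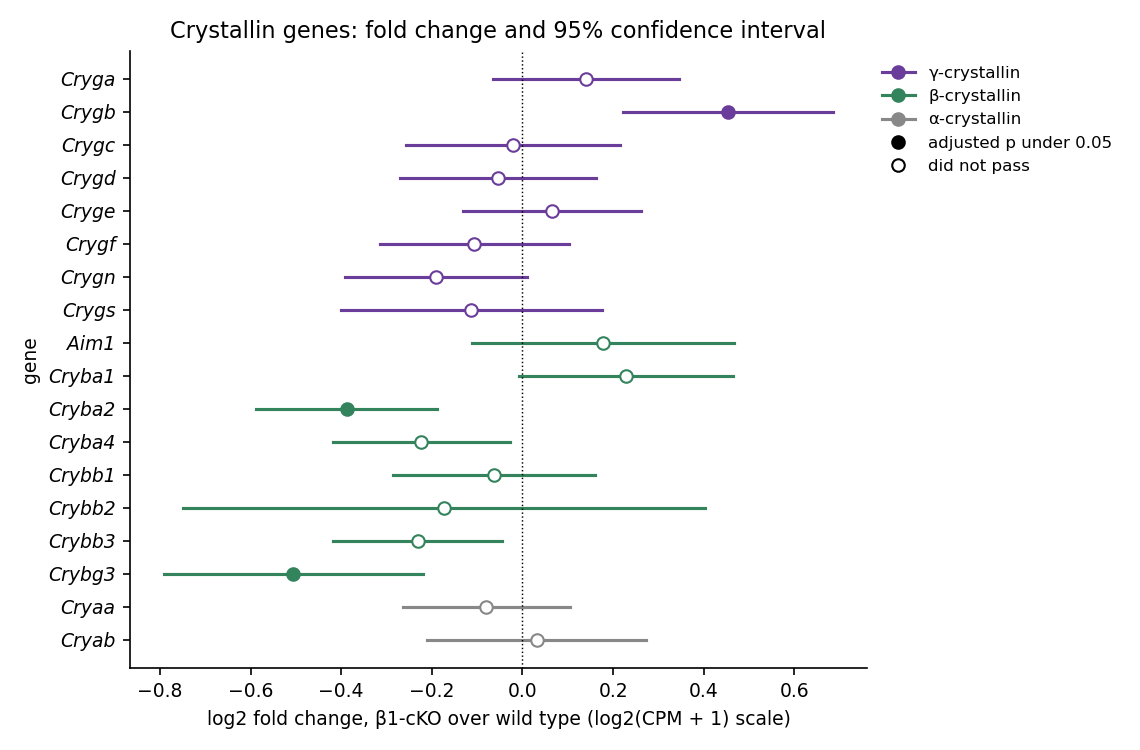
Log2 fold change of β1-cKO over wild type on the log2(CPM + 1) scale for the tested γ-, β- and α-crystallin genes (points) with 95% confidence intervals (lines), and filled points for adjusted p under 0.05. Crygb at 0.45 is the 1 filled point above 0, and Cryba2 at -0.39 and Crybg3 at -0.51 are filled below it.

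Within a group, most members were lowest in the same library. All 8 were lowest in wild-type replicate 3 among the wild-type libraries, and 7 of 8 were lowest in β1-cKO replicate 2 among the β1-cKO libraries, with Crygn as the exception. The highest library differed more: in β1-cKO, 6 of 8 were highest in replicate 1, and Crygb and Crygs in replicate 3. The same 2 lowest libraries had the lowest total crystallin share of their group, 31.6% and 29.8% of reads. That total includes the γ-crystallins. The α- and β-crystallin shares were also lowest in these libraries, so the low values are not particular to the γ-crystallins. Relative to its own wild-type mean, Crygb stood at 0.56, 0.21 and 0.57 on the log2 scale in β1-cKO replicates 1, 2 and 3, and it was the highest of the 8 members in each of them. In β1-cKO replicate 2 the other 7 members ranged from -0.35 in Crygs to -0.02 in Cryga.

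**Figure D4:**
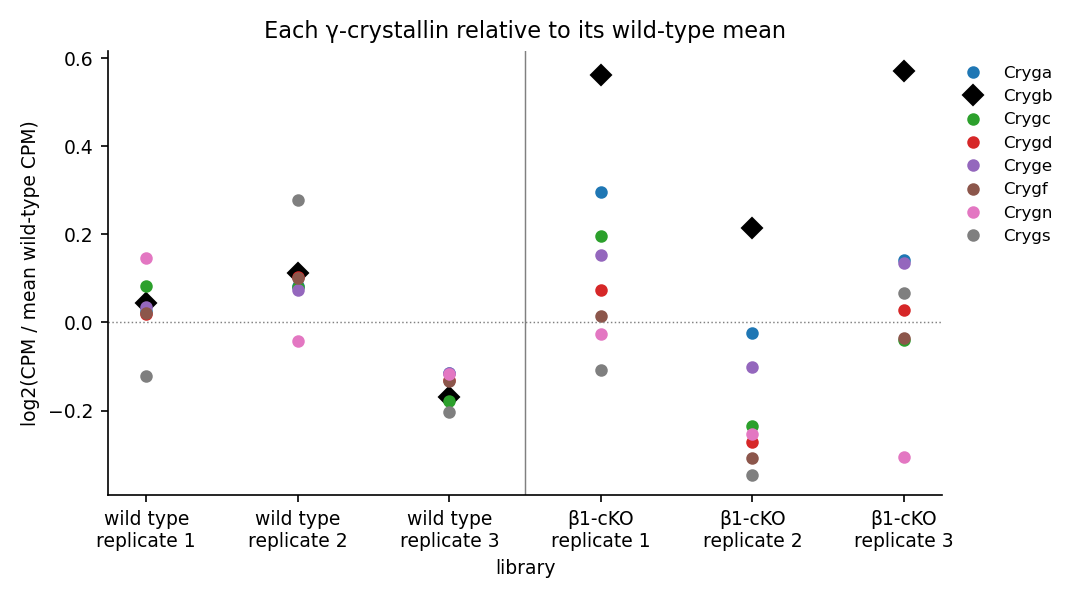
Log2 of each γ-crystallin's CPM over its own mean in wild type, by library. Crygb (black diamonds) is at 0.21 to 0.57 in the β1-cKO libraries and above the other 7 members in each of them, while wild-type replicate 3 is below 0 for all 8 members and β1-cKO replicate 2 is below 0 for the other 7.

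The family as a whole took 7.67%, 7.92% and 6.81% of all reads in wild-type replicates 1, 2 and 3 and 8.77%, 7.02% and 8.28% in β1-cKO replicates 1, 2 and 3. The groups overlapped, with means of 7.47% ± 0.585 and 8.02% ± 0.905 (SD, n = 3 each). With Crygb left out the means were 6.31% ± 0.471 and 6.43% ± 0.703, a ratio of 1.02. Within the crystallin reads, γ-crystallins made up 21.5% to 23.2% in wild type and 23.6% to 25.6% in β1-cKO, ranges that did not overlap. These shares include Crygb, and the separation is not shown for the other members. The family mean was 5579 CPM higher in β1-cKO, and the mean of Crygb alone was 4335 CPM higher. The β-crystallin share of all reads was 11.7% ± 0.665 in wild type and 10.7% ± 1.24 in β1-cKO, and the α-crystallin share 14.3% ± 0.618 and 13.6% ± 0.576. These sums are over chosen members and were given no test.

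Within a group, the share of γ-crystallin reads taken by Crygb varied less than its level. Crygb took 15.6%, 15.8% and 15.1% of the γ-crystallin reads in wild-type replicates 1, 2 and 3 and 19.5%, 19.2% and 20.8% in β1-cKO replicates 1, 2 and 3, with an SD of 0.338 and 0.851 percentage points. The shares of Crygd (15.8% to 16.3% in wild type and 14.2% to 14.8% in β1-cKO), Crygf (9.11% to 9.32% and 7.93% to 8.10%) and Crygn (4.62% to 5.43% and 3.68% to 4.50%) were lower in β1-cKO without overlap. Shares add up to a whole, so a rise of Crygb lowers the others. Recomputed without Crygb, the groups stayed apart for Crygd (18.8% to 19.3% in wild type, 17.5% to 18.6% in β1-cKO) and Crygf (10.8% to 11.1% and 9.81% to 10.2%). Those of Crygn then overlapped (5.48% to 6.43% and 4.64% to 5.57%). The groups of Cryga, which overlapped with Crygb in the total, did not overlap without it (30.1% to 30.6% and 32.2% to 33.3%). The recomputed shares also add up to a whole, so the larger share of Cryga lowers the others. In CPM the groups of Crygd, Crygf and Cryga overlapped. Over all genes the CPM of 48.1% did not overlap. That figure is for levels, and none was computed for shares, so how common such separation is among shares was not tested.

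**Figure D5:**
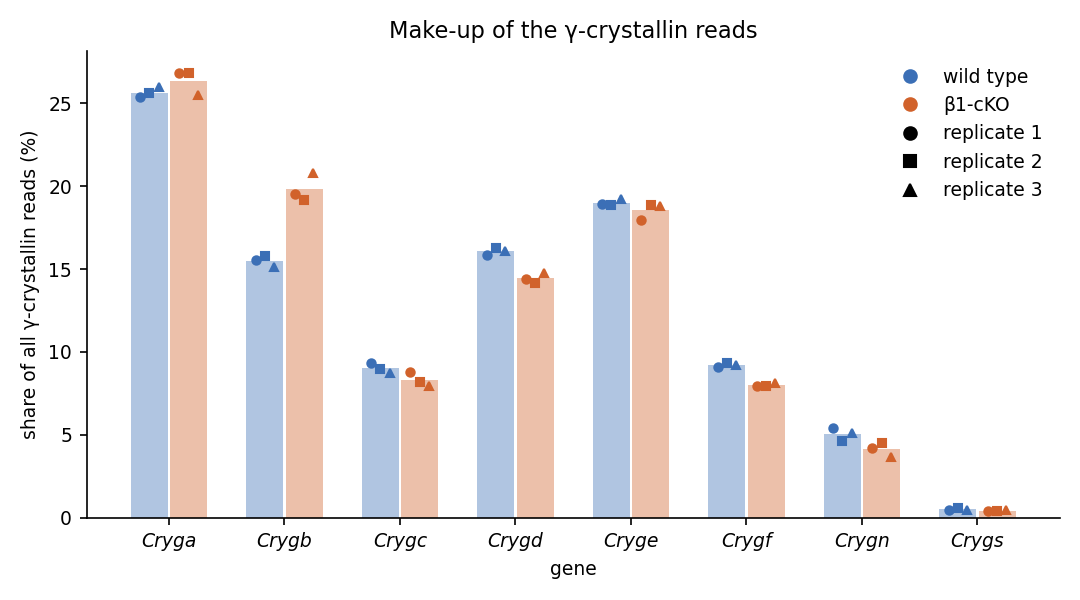
Share of all γ-crystallin reads taken by each gene, in percent, with bars for the mean of 3 libraries and points for the libraries of each group. Crygb takes 15.1% to 15.8% in wild type and 19.2% to 20.8% in β1-cKO, and Crygd, Crygf and Crygn take less in β1-cKO.

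The ratio of Cryge to Crygf reads was 2.08, 2.02 and 2.09 in the wild-type replicates and 2.27, 2.38 and 2.32 in the β1-cKO replicates. These paralogs share the most words, and strain differences in their sequence could not be seen in the files, so their part in this ratio was not tested. The ratio of Crygb to Cryga reads was 0.583 to 0.618 in wild type and 0.714 to 0.816 in β1-cKO, and that of Crygb to Crygc 1.67 to 1.76 and 2.22 to 2.62.

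Of 8 tested genes for β-crystallins or proteins with crystallin-like domains, 0 were higher and 2 lower, beside 20.9% and 15.9% of all genes tested. Their median log2 fold change was -0.20. At an unadjusted p under 0.05 limma gave 0 higher and 4 lower, edgeR called 0 and 2, and DESeq2 called 0 and 4. Cryba2, which encodes βA2-crystallin, fell from 10200.2 ± 794 to 7808 ± 838 CPM in the mean, and its log2 fold change was -0.39 with an adjusted p of 0.00557. Crybg3, a low gene with crystallin-like domains, fell by 0.51 on the log2 scale (adjusted p = 0.00934). Without β1-cKO replicate 1 the lower count was 4. Neither of the 2 α-crystallin genes, which encode small heat shock proteins, was called by limma, edgeR or DESeq2, and 0 had an unadjusted p under 0.05. Cryaa was at -0.08 (95% confidence interval -0.26 to 0.10, adjusted p = 0.496) and Cryab at 0.03 (-0.21 to 0.27, adjusted p = 0.851) on the log2 scale.

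Transcription factors and cofactors known to act on crystallin promoters or on early fiber differentiation went both ways. Of 25 such genes, 23 were tested, and 4 were higher and 3 lower, beside 20.9% and 15.9% of all genes tested. With edgeR 4 were higher and 4 lower, beside 20.0% each way over all genes. The median log2 fold change of the 23 was -0.03. Maf, a factor that activates crystallin promoters, rose from 993, 1087 and 1011 CPM in wild-type replicates 1, 2 and 3 to 1460.2, 1436 and 1476 CPM in β1-cKO replicates 1, 2 and 3 (log2 fold change 0.50, adjusted p = 1.34e-04). Creb1, which encodes a cAMP-response factor, rose by 0.33 (adjusted p = 0.00445) and the retinoic acid receptor gene Rarb by 0.40 (adjusted p = 0.0141).

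Gata3, a factor of fiber differentiation, fell by 0.41 (adjusted p = 0.00325), and Foxe3, a lens epithelium factor, fell by 0.37 (adjusted p = 0.0424) with overlapping groups. Hdac1, a histone deacetylase gene, was at 27.1 ± 1.26 CPM in wild type and 13.8 ± 0.900 CPM in β1-cKO (log2 fold change -0.93, adjusted p = 7.86e-06). The gene model Gm10093 moved the other way, with 0 reads in every wild-type library and 176, 211 and 223 reads in the β1-cKO replicates, and whether reads passed between the pair was not tested. Prox1 (-0.05, 95% confidence interval -0.23 to 0.12, adjusted p = 0.633) and Pax6 (-0.02, -0.20 to 0.16, adjusted p = 0.894), named for their known role after their values were seen, did not pass. Sox1 and Sox2, whose proteins are known to bind γ-crystallin promoters, are listed at 0 in all 6 libraries, so their levels could not be read from these files.

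Among the 23 listed genes within 500000 bases of the span from Cryge to Crygf, 9 were tested. Of these, 3 were higher and 0 lower, beside 20.9% and 15.9% of all genes tested. Their median log2 fold change was 0.18, beside 0.03 over all genes. Idh1, an isocitrate dehydrogenase gene, rose by 0.24 (adjusted p = 0.0157), Creb1 by 0.33, and D630023F18Rik, the nearest tested gene beyond Cryga, by 0.79 (0.548 ± 0.177 CPM in wild type and 1.68 ± 0.337 CPM in β1-cKO, adjusted p = 0.00231). The read-through model Gm28845 overlaps both D630023F18Rik and Cryga. The other 6 did not pass. Limma called 0 of the 9 lower also at an unadjusted p under 0.05, and edgeR called 3 higher and 0 lower. Creb1 is counted among the regulators as well.

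The pattern of Crygb over the 6 libraries was most like that of Dnajb1, a heat shock cochaperone gene, with a Pearson correlation of 0.990 among the 1458 genes averaging 100 CPM or more. Dnajb1 was at 225, 219 and 197 CPM in the wild-type replicates and at 286, 243 and 289.7 CPM in the β1-cKO replicates. Zfand5 (0.989), Paics (0.976), Eif5b (0.967) and Eif4e (0.964) followed. The sum of Cryga to Crygf was most like Tmem59 (0.984), then Eaf1 (0.947), Pebp1 (0.935), Mgarp (0.933) and Cryab (0.918). These points share library depth and the group difference, and the correlations are descriptions of 6 libraries.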

How the data were processed

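Poly(A) RNA of pooled lenses was read as single-end 50-base reads with a kit that does not mark strand, per the labels' protocols. The authors deposited CPM and RPKM values per feature, per the file headers, and the submitters' processing notes name edgeR and GRCm38. The aligner, the counter, the annotation release and the treatment of multi-mapping reads were not given in the sources used here. The deposited CPM values were whole multiples of 1 read within 0.02 reads in 100% of values, so reads were recovered. 1 read was worth 0.0356 to 0.0998 CPM. Features without an Ensembl identifier took 0.192% to 0.208% of reads and stayed in the totals.

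The main test was limma-trend (limma 3.58.1, R 4.3.3, robust moderation, group as the only term) on log2(CPM + 1) for the 11941 genes that reached 1 CPM in 3 or more libraries. That scale, used for every fold change, understates the change of low genes. Calls required a limma p under 0.05 after Benjamini-Hochberg adjustment across this whole set. The script was tested on simulated data. RPKM served for levels between genes. Alternatives were other scalings, filters and pseudocounts, RPKM, a replicate block, limma-voom, edgeR 4.0.16 and DESeq2 1.42.0 on recovered reads, thinned reads and leaving out each library.

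Coordinates and 50-base words came from GENCODE M21 (GRCm38), and promoters from RefSeq (GRCm38.p6), where 8 of 8 members matched. Coding sequences were aligned with Biopython 1.88, and identity was counted over aligned bases. Named genes were the members, called genes of each list or up to 4 with the smallest adjusted p, and the 5 genes most like Crygb and the sum, and some genes of the lists are not reported here. Members and lists were chosen with earlier results of these data known. The p-values set the group difference against the spread between pooled libraries, and not between single animals.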

Additional observations from a re-analysis of the deposited data

How the results depend on the processing

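The rise of Crygb kept its direction and its call under all 18 alternatives, with log2 fold changes from 0.37 to 0.57 when 1 library was left out and adjusted p-values from 3.19e-04 to 0.0308 over all of them. Cryga and Crygf kept their direction and passed under none of theirs, and Cryge did so except that the merged sum of Crygd, Cryge and Crygf was at -0.012. Leaving out single libraries gave log2 fold changes from -0.13 to 0.083 in Crygc (0.083 without β1-cKO replicate 2, 0.023 without wild-type replicate 1 and 0.021 without wild-type replicate 2), from -0.12 to 0.054 in Crygd (0.054 without β1-cKO replicate 2), from -0.21 to 0.033 in Crygs (0.033 without wild-type replicate 2) and from -0.28 to -0.12 in Crygn. The counts called lower then ran from 0 to 1 γ-crystallin and from 2 to 4 β-crystallins, with the highest count of both without β1-cKO replicate 1. The replicate numbers were not taken as pairs in the main test. Deviations of same-numbered libraries correlated at 0.327, -0.034 and 0.147, and not every library was most like its own number. With 3 libraries a group these correlations cannot settle whether the libraries are paired. With the replicate number as a block Crygn passed at -0.19 (adjusted p = 0.0226), so that 1 γ-crystallin was called lower, and 1 β-crystallin was called higher and 4 lower. DESeq2 called 4 β-crystallins lower. The cause of these differences was not tested. The fewest reads on a member were 3318, on Crygs, which gives a counting error of 1.74%.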
